A study of Mus musculus with 2 samples.

Results

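Genes of the vessel wall matrix were followed across kidney endothelial cells. The members were Col4a1, Col4a2, Col15a1 and Lama4, which belong to the basement membrane or lie beside it, the collagen-binding glycoprotein gene Sparc, the elastic fibre genes Eln, Fbln2, Fbln5 and Ltbp4, and the fibronectin gene Fn1. They were picked by name, and all 10 were found among the 32285 genes of the deposited matrices. The study compared 2 droplet-based single-cell libraries of kidney cells from male C57BL6/J mice aged 10 to 12 weeks, 1 library after saline and 1 taken 72 h after cisplatin at 20 mg/kg, a platinum drug that injures the kidney tubule. The design text names 10 kidneys per condition, so each library pools animals, and 5 mice, where it is not clear whether that is per condition or in all. Cells had been enriched with magnetic beads against CD31 (Pecam1) and then against podoplanin (Pdpn), which together mark lymphatic endothelium. With 1 library per treatment there was no replicate check and thus neither a test nor a p-value. Every interval below is a 95% interval for counting error alone.

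Endothelial cells rest on a basement membrane, a thin sheet built on networks of type IV collagen and laminin. Col4a1 and Col4a2 encode the chains of the type IV collagen found in nearly every basement membrane, Lama4 encodes the laminin alpha chain typical of vessels, and Col15a1 encodes a collagen that ties basement membranes to the tissue beneath. Large arteries add elastic fibres, in which elastin (Eln) is laid onto microfibrils with the help of fibulin-5 (Fbln5) and of the latent TGF-beta binding protein encoded by Ltbp4. Fibulin-2 (Fbln2) lies in elastic laminae and basement membranes, and fibronectin (Fn1) is an adhesive matrix protein often found where flow is disturbed or vessels are remodelled.

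The saline library held 5879496 unique molecular identifiers (UMIs, each standing for 1 captured transcript) and the cisplatin library 19994105. After a floor of 500 UMIs and a ceiling of 20% mitochondrial UMIs, the barcodes kept numbered 627 in saline (median 896 UMIs) and 1729 in cisplatin (median 746 UMIs), and no kept barcode was shared. The label names lymphatic endothelial cells, but 0 barcodes of either library held UMIs of at least 2 of 5 lymphatic markers. Prox1 was seen in 4 saline and 11 cisplatin barcodes and Pdpn in 2 and 17. The barcodes described here were therefore gated by markers of blood endothelium, and no member gene was used in a gate. There were 196 saline and 63 cisplatin capillary-like barcodes, 31 and 24 glomerular-like, and 111 and 12 arterial-like. A further 97 and 201 endothelial barcodes had no subtype, which makes 435 and 300 endothelial barcodes in all. Barcodes that carried endothelial markers together with markers of another class (62 and 209) were set apart. No list of venous markers was used, so venous endothelium was not set apart from these gates.

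Col4a1 (ENSMUSG00000031502, chr8:11198423-11312826, minus strand) and Col4a2 (ENSMUSG00000031503, chr8:11312805-11449287, plus strand) lie head to head in GRCm38. Their RefSeq start sites are 21 bases apart, so the windows from 250 bases before to 50 after each start share 78 bases, chr8:11312777-11312854, read on opposite strands. Both windows are shown because Col4a2 was the member whose levels across gates were most like those of Col4a1, and the shared bases are in capitals (GRCm38.p6, each on its gene's strand).
Col4a1: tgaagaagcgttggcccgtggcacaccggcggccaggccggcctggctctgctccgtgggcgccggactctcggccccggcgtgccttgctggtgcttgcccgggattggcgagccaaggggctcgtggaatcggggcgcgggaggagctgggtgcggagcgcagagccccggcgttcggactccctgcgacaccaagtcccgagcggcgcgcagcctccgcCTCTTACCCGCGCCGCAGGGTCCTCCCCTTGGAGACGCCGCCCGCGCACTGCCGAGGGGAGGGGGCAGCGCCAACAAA
Col4a2: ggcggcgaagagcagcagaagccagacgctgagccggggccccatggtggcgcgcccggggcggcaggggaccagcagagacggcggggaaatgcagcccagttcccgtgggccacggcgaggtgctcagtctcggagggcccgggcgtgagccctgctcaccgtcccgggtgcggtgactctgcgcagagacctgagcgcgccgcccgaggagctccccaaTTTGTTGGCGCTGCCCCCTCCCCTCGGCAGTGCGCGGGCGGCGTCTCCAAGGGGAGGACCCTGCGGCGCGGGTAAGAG
Both windows have a high GC content (74% and 73.7%, against a median of 52.7% over 32851 mouse promoter windows). On either strand the Col4a1 window holds 1 GC box (GGGCGG) and the Col4a2 window 3, and such a box occurs in 35.7% of all windows. On either strand each holds 1 CCAAT box, spelled as its name in the Col4a2 window and as ATTGG in the Col4a1 window. Such a box occurs in 37.4% of windows.

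The other windows shown belong to Ltbp4 (ENSMUSG00000040488, chr7:27305136-27337692, minus strand) and Col15a1 (ENSMUSG00000028339, chr4:47208161-47313167, plus strand), the genes with the lowest cisplatin to saline ratios in the capillary-like barcodes. Ltbp4 has 3 RefSeq start sites, and the window shown is that of the site farthest upstream, chr7:27337563-27337862, with GC box and CCAAT box matches on either strand in capitals. The Col15a1 window is chr4:47207762-47208061 and holds neither.
Ltbp4: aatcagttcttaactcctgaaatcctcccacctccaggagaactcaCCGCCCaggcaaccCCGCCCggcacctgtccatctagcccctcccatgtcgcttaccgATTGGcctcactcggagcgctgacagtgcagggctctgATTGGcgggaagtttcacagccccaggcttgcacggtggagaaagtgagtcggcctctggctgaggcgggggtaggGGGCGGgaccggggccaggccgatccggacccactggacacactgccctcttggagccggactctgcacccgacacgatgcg
Col15a1: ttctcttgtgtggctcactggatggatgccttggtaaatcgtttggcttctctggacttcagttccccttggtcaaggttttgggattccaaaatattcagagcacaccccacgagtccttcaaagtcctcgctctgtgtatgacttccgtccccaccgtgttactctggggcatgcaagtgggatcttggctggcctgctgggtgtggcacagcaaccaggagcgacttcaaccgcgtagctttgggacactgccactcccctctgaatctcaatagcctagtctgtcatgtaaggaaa
The Ltbp4 window holds 3 GC box and 2 CCAAT box matches, none of which overlaps another, while the windows of its other 2 start sites hold 7 and 9 GC box and 0 CCAAT box matches. The shown windows of Ltbp4 and Col15a1 have no searched motif in common. A further motif, the TATA box (TATAAA on either strand), occurs in 13.6% of all windows and in none of the 4 shown. A match is a description of the letters only. No promoter window was at hand for Lama4, Eln or Fn1.

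In saline the 10 genes fell into contrasting patterns across the vessel types. Levels are given as CPM, the UMIs of a gene scaled to the summed UMIs of all barcodes in a gate. A gene was called higher or lower where its ratio passed 1.5-fold and the interval did not include 1. Genes under 20 UMIs over both sides were not judged. Between arterial-like and capillary-like barcodes 9 genes could be judged. All 4 elastic fibre genes and Fn1 were higher in the arterial-like barcodes, Col4a1, Col4a2 and Col15a1 were lower, and Sparc was neither. Among all 4746 genes judged the same way, 10.6% were higher and 9.8% lower. The median log2 ratio was 1.01 for the 9 genes and 0.01 for all genes. Arterial-like barcodes were deeper (median 2657 UMIs, against 847 in the capillary-like ones), and free RNA made up an estimated 1.63% and 6.26% of their UMIs.

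The type IV collagen genes were highest in capillary-like barcodes. Col4a1 stood at 888 CPM there (760 to 1030), at 522 CPM in glomerular-like barcodes (310 to 826) and at 289 CPM in arterial-like ones (240 to 346). Col4a2 followed the same order, with 462, 232 and 114 CPM. The arterial to capillary ratio was 0.326 for Col4a1 (0.256 to 0.414) and 0.248 for Col4a2 (0.170 to 0.356). The glomerular intervals, which rest on 18 and 8 UMIs, overlapped those on either side for both genes. By share of barcodes the order differed, with Col4a1 seen in 90 of 196 capillary-like and 64 of 111 arterial-like barcodes. After each barcode was thinned to 500 UMIs the counts were 69 of 196 and 12 of 111, so the order of the shares turned at equal depth.

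Col15a1 showed the sharpest difference. It gave 49 UMIs in 36 capillary-like barcodes (251 CPM, 186 to 332), 1 UMI in the glomerular-like and 1 UMI in the arterial-like barcodes. The arterial to capillary ratio was 0.00967 (0.00024 to 0.0565), and free RNA would give an estimated 0.288 UMIs in the arterial gate. Lama4 (ENSMUSG00000019846, chr10:38965515-39110188) was sparse, with 16 UMIs in the capillary-like (82.1 CPM, 46.9 to 133), 2 in the glomerular-like and 1 in the arterial-like barcodes, too few in all for a call. Sparc (ENSMUSG00000018593, chr11:55394500-55423183) was high in both main gates, at 1606 CPM in capillary-like (1433 to 1794) and 1340 CPM in arterial-like barcodes (1230 to 1456). Its ratio of 0.834 (0.725 to 0.962) lay inside the 1.5-fold limits.

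Eln (ENSMUSG00000029675, chr5:134702593-134747323) gave 3 UMIs in 196 capillary-like barcodes and 152 UMIs in 56 of 111 arterial-like barcodes. That is 15.4 CPM (3.17 to 45.0) against 370 CPM (313 to 433), a ratio of 24.0 (8.06 to 118). Free RNA alone would give an estimated 1.11 of the 3 capillary UMIs (36.9%). In single arterial-like barcodes Eln ran from 0 to 17 UMIs with a median of 1, and 31 barcodes held at least 2.

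The fibulins were higher in arterial-like barcodes in the same way. Fbln5 (ENSMUSG00000021186, chr12:101746565-101819055) stood at 20.5 CPM in the capillary-like gate (4 UMIs) and at 800 CPM in the arterial-like gate (329 UMIs in 80 barcodes), a ratio of 39.0 (15.1 to 144). Fbln2 (ENSMUSG00000064080, chr6:91212455-91272540) stood at 56.4 and 452 CPM, a ratio of 8.01 (4.38 to 16.3). Fn1 (ENSMUSG00000026193, chr1:71585520-71653200) gave 1 UMI in capillary-like barcodes and 82 UMIs in 36 arterial-like ones (199 CPM, 159 to 247). Its ratio of 38.9 had an interval from 6.78 to 1553, since it rests on that 1 capillary UMI. Where a barcode's subtype was set by summed marker UMIs in place of the number of markers, the ratios for Eln, Fbln2 and Fbln5 came to 5.91, 3.43 and 6.10.

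Ltbp4 differed from the other elastic fibre genes in being plain in capillary-like barcodes too. It gave 80 UMIs in 55 of 196 capillary-like barcodes (410 CPM, 326 to 511) and 342 UMIs in 86 of 111 arterial-like barcodes (832 CPM, 746 to 925), a ratio of 2.03 (1.58 to 2.62). The glomerular-like barcodes reached 842 CPM (564 to 1209), but 10 of their 29 Ltbp4 UMIs came from 1 barcode.

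**Figure D1:**
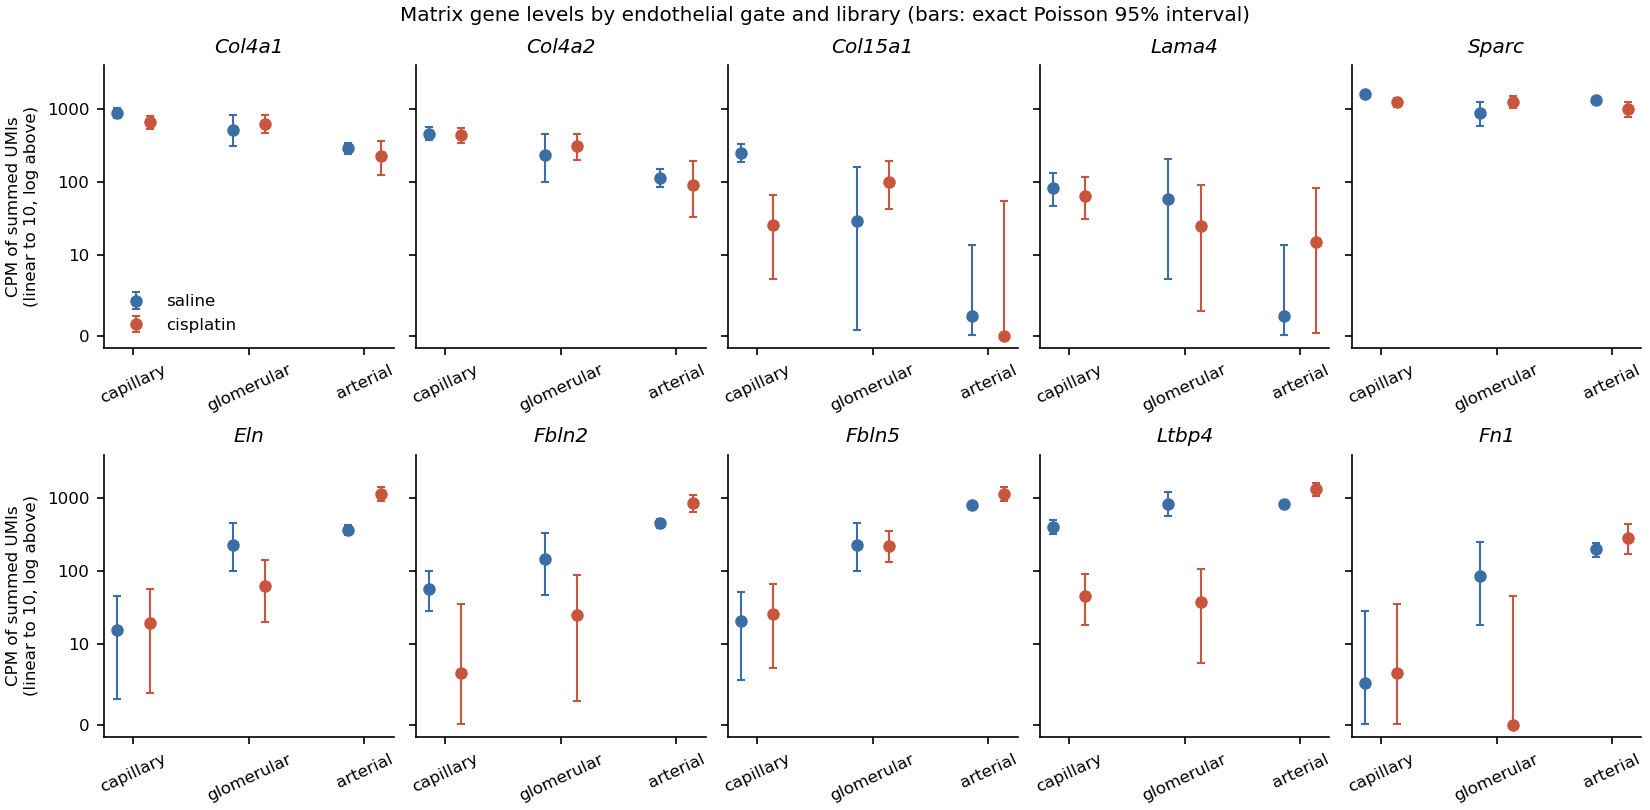
Level of each gene (CPM of summed UMIs, axis linear to 10 and logarithmic above) in the capillary, glomerular and arterial gates of the saline (blue) and cisplatin (red) libraries, with exact Poisson 95% intervals. The type IV collagens descend from capillary to arterial barcodes, the elastic fibre genes and Fn1 climb, and Ltbp4 in the capillary gate stands at 410 CPM in saline and 45.0 CPM in cisplatin.

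Against capillary-like barcodes, 5 genes could be judged in the 31 saline glomerular-like barcodes. Ltbp4 was higher (2.05-fold, 1.29 to 3.17), and Col4a1 (0.589, 0.341 to 0.958), Col15a1 (0.116, 0.00287 to 0.674) and Sparc (0.542, 0.360 to 0.790) were lower. Col4a2 was neither (0.503, 0.211 to 1.03). Of 2121 genes, 4.67% were higher and 4.76% lower. The Ltbp4 ratio was 0.920 (0.422 to 1.80) when 3 endothelial and 3 subtype markers were asked for, and 1.42 (0.808 to 2.36) without the barcode that held most of it in each gate. The same glomerular-like barcodes also held 8 UMIs each of Eln and Fbln5 and 79 UMIs of Mgp, a matrix calcification inhibitor that stood at 2293 CPM there, 1996 CPM in arterial-like and 56.4 CPM in capillary-like barcodes. They also held UMIs of all 8 arterial markers, 39 in sum (1132 CPM), as did the capillary-like barcodes (954 CPM). Their part in the glomerular values was not tested.

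**Figure D2:**
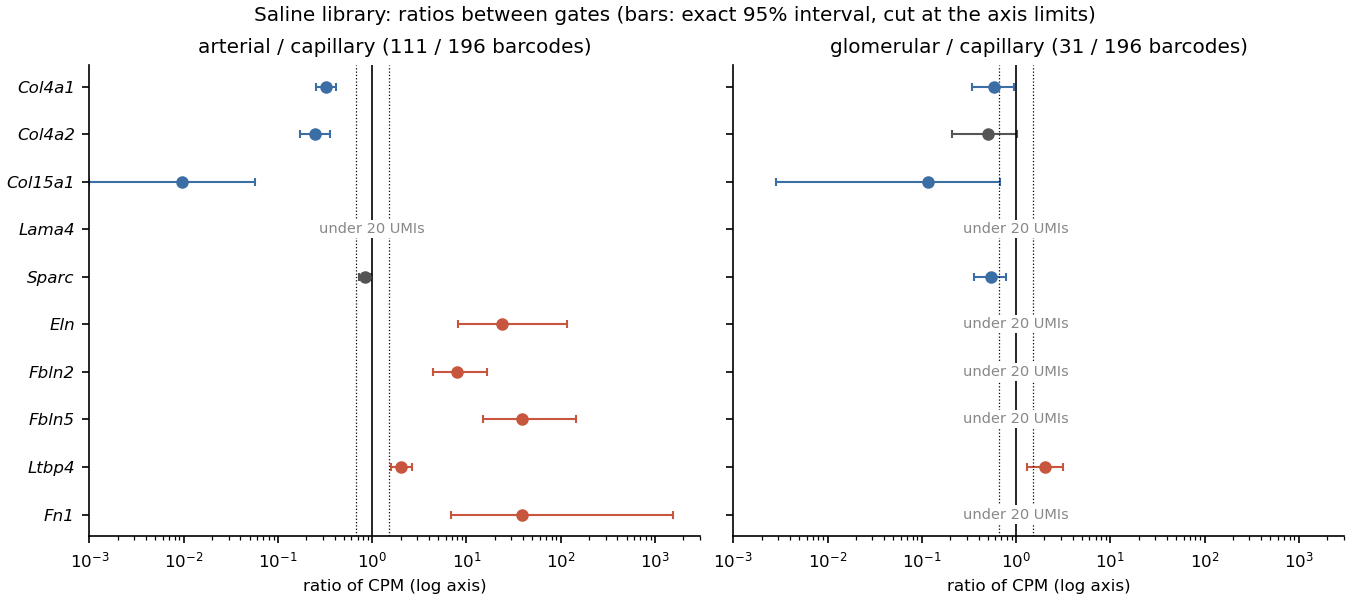
Ratios of CPM in the saline library, arterial to capillary (left) and glomerular to capillary (right), on a log axis with exact 95% intervals; dotted lines mark 1.5-fold either way, red and blue mark genes called higher and lower, and grey text marks genes under 20 UMIs. On the left Eln, Fbln2, Fbln5, Ltbp4 and Fn1 lie right of 1 and Col4a1, Col4a2 and Col15a1 left of it.

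The elastic genes were found together in single arterial-like barcodes. Of 111 saline arterial-like barcodes, 70 held UMIs of at least 3 of the 5 genes Eln, Fbln2, Fbln5, Ltbp4 and Fn1, and 22 held all 5, against 2 and 0 of 196 capillary-like barcodes. At 500 UMIs per barcode, 17 arterial-like barcodes and 1 capillary-like barcode still held at least 3. For Col4a1, Col4a2, Col15a1, Lama4 and Sparc the balance was the other way at equal depth, with at least 3 of the 5 in 23 of 196 capillary-like and 0 of 111 arterial-like thinned barcodes (55 and 26 before thinning).

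Arterial-like barcodes were not uniform. In saline, 50 of the 111 held a UMI of Calca or Thbs2, genes that earlier results of these data had placed in a subset of large-vessel endothelium, and 61 did not. Eln stood at 161 CPM in barcodes with Calca or Thbs2 and at 817 CPM in those without, a ratio of 0.197 (0.136 to 0.281). Fn1 was also lower in those with (82.1 and 450 CPM, ratio 0.182, 0.107 to 0.300). The difference was smaller for Fbln2 (ratio 0.499, 0.370 to 0.672), Fbln5 (0.50, 0.400 to 0.624) and Ltbp4 (0.598, 0.481 to 0.746). Sparc went the other way, at 1513 and 969 CPM (ratio 1.56, 1.28 to 1.92), while Col4a1 (1.17) and Col4a2 (0.997) lay near 1. Barcodes with Calca or Thbs2 were also deeper (median 4994 and 1931 UMIs), and the part of depth in these ratios was not tested.

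In capillary-like barcodes, cisplatin was set against saline to ask how the matrix genes stood 72 h after injury. Of 6 genes that could be judged, Ltbp4 and Col15a1 were lower after cisplatin, none was higher, and Col4a1, Col4a2, Lama4 and Sparc were neither. Among 3184 genes, 8.95% were higher and 13.3% lower. The median log2 ratio was -0.40 for the 6 genes and -0.11 for all genes.

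Ltbp4 gave 80 UMIs in 55 of 196 saline barcodes and 7 UMIs in 4 of 63 cisplatin barcodes. Its level was 410 CPM (326 to 511) and 45.0 CPM (18.1 to 92.7), a ratio of 0.110 (0.0427 to 0.236). The intervals did not overlap, and 4 of the 7 cisplatin UMIs came from the deepest barcode. At 500 UMIs per barcode it was seen in 39 of 196 saline and 0 of 63 cisplatin barcodes. In free RNA Ltbp4 stood at 95.6 and 28.03 CPM, so it was lower in the free RNA of the cisplatin library as well. Its level in arterial-like barcodes, given below, was not lower in cisplatin, on 12 barcodes.

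Col15a1 gave 49 UMIs in 36 of 196 saline barcodes and 4 UMIs in 3 of 63 cisplatin barcodes. Its level was 251 CPM (186 to 332) and 25.7 CPM (7.003 to 65.8), a ratio of 0.102 (0.0268 to 0.279). In free RNA it stood at 42.9 and 40.2 CPM, close together. After thinning it was seen in 22 of 196 and 0 of 63 barcodes. In the glomerular-like barcodes, where saline gave 1 UMI, cisplatin gave 8 (29.0 and 99.1 CPM), too few for a call.

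The type IV collagen genes stayed within the 1.5-fold limits. Col4a1 gave 173 UMIs in saline (888 CPM, 760 to 1030) and 102 in cisplatin (655 CPM, 534 to 796), a ratio of 0.738 (0.572 to 0.949). Col4a2 gave 90 and 68 UMIs (462 and 437 CPM), a ratio of 0.946 (0.680 to 1.31). Positive barcodes made up 45.9% and 49.2% for Col4a1 and 30.6% and 36.5% for Col4a2, with overlapping intervals. After thinning, these shares were 35.2% and 17.5% for Col4a1 and 18.4% and 11.1% for Col4a2. Their order thus turned at equal depth, with intervals that still overlapped. At 500 UMIs per barcode the ratio was 0.444 (0.228 to 0.799) for Col4a1, which would then be called lower, and 0.593 (0.240 to 1.28) for Col4a2.

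Sparc gave 313 and 195 UMIs (1606 and 1253 CPM), a ratio of 0.780 (0.649 to 0.936), and 1.13 (0.799 to 1.57) after thinning. Lama4 gave 16 and 10 UMIs, a ratio of 0.783 (0.318 to 1.84). The remaining members were near absent from capillary-like barcodes in both libraries, with 3 and 3 UMIs of Eln, 4 and 4 of Fbln5, 11 and 1 of Fbln2 and 1 and 1 of Fn1.

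**Figure D3:**
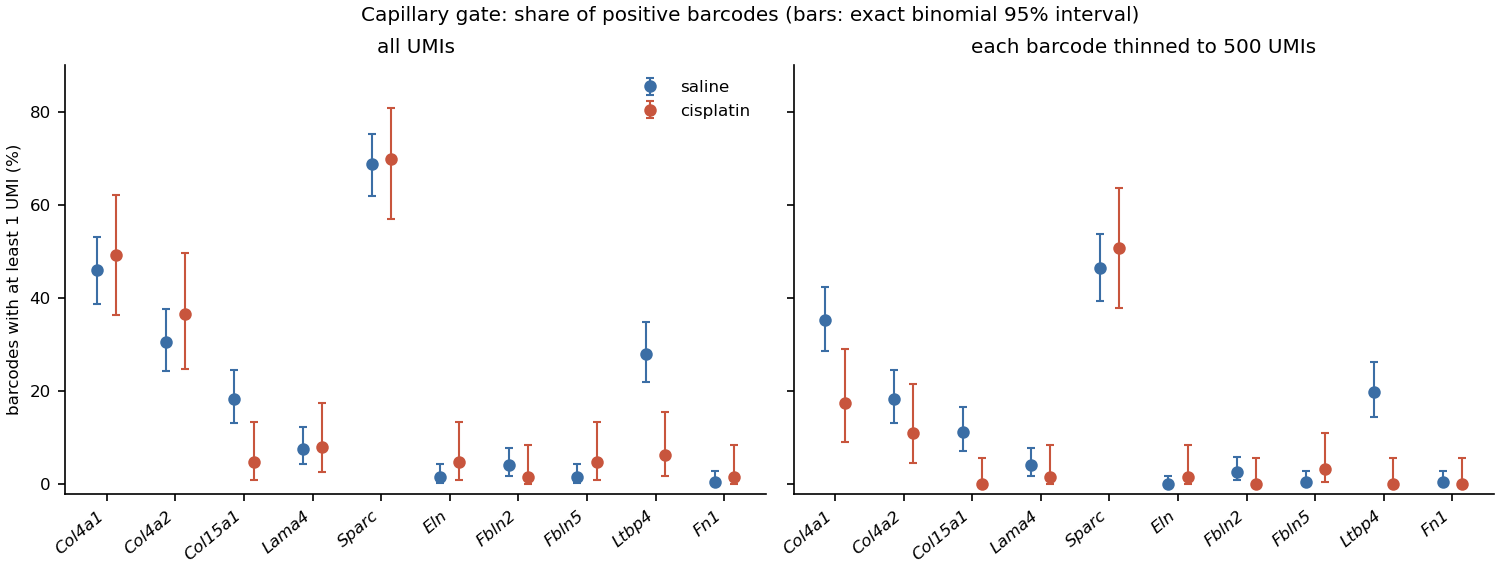
Percent of capillary-like barcodes with at least 1 UMI of each gene in saline (blue, 196 barcodes) and cisplatin (red, 63 barcodes), with all UMIs (left) and after thinning each barcode to 500 UMIs (right), with exact binomial 95% intervals. Ltbp4 stands at 28.1% in saline and 6.35% in cisplatin on the left, and Sparc at 68.9% and 69.8%.

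Other features of the capillary-like barcodes moved with these values. A single cisplatin barcode of 31899 UMIs held 20.5% of the gate's UMIs. Without it Col4a1 stood at 776 CPM, Sparc at 1414, Col15a1 at 32.3 and Ltbp4 at 24.3 CPM (3 UMIs). Mitochondrial UMIs made up 1.21% in saline and 4.71% in cisplatin, the nuclear RNA Malat1 8.38% and 2.94%, and free RNA an estimated 6.26% and 9.86%. The gate's own markers differed too, but in both directions. Of the 8 capillary markers, Aplnr stood at a ratio of 0.157, Npr3 at 0.412, Fabp4 at 0.461 and Cd36 at 0.652. Rgcc stood at 1.95, Igfbp3 at 1.41, Plvap at 1.19 and Gpihbp1 at 1.14. The intervals of Cd36 and Gpihbp1 included 1. Among the endothelial markers, the receptor genes Kdr (0.353) and Ptprb (0.381) were low, while Ecscr stood at 3.05. Pecam1 (1.03), Flt1 (0.92), Egfl7 (1.05) and Emcn (0.99) had intervals that included 1. The 6 fibroblast markers summed to 1 UMI (5.13 CPM) and 16 UMIs (103 CPM), all from Dcn, with Pdgfra, Lum, Dpt, Scara5 and Clec3b at 0. The 10 mural markers summed to 97.5 and 45.0 CPM, with Pdgfrb, Notch3, Tagln, Des, Cspg4 and Ren1 at 0 in both libraries. The 8 arterial markers summed to 954 CPM in saline, with all 8 seen, and to 482 CPM in cisplatin, with Gja5, Bmx, Hey1 and Cxcl12 at 0 (Efnb2 at a ratio of 0.505, 0.304 to 0.815). The 10 distal nephron markers summed to 123 and 463 CPM. The part of these features in the member ratios was not tested. Where no UMI of an arterial marker, Calca or Thbs2 was allowed (98 and 38 barcodes), the Ltbp4 ratio was 0.0825 (0.00962 to 0.320).

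**Figure D4:**
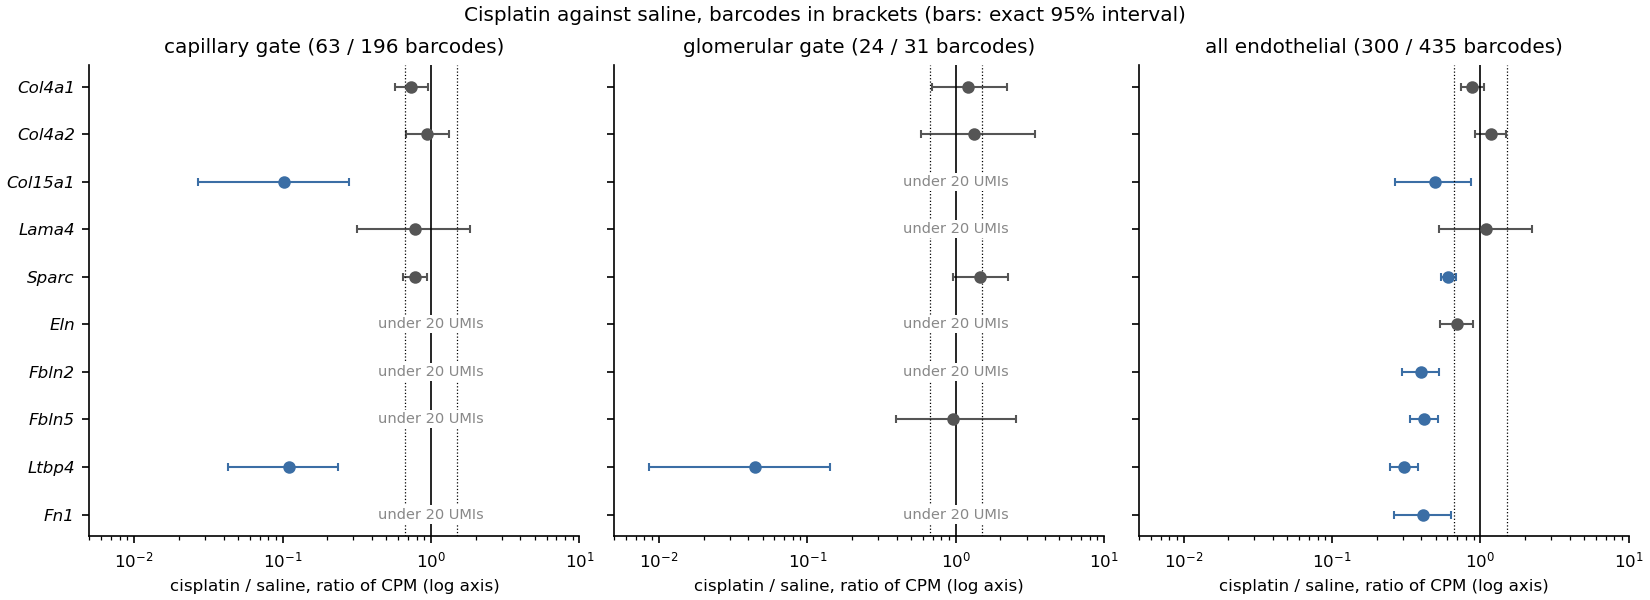
Cisplatin to saline ratios of CPM on a log axis with exact 95% intervals in the capillary gate, the glomerular gate and all endothelial barcodes; dotted lines mark 1.5-fold either way, blue marks genes called lower, dark grey neither, and grey text genes under 20 UMIs. Ltbp4 lies left of the limits in all 3 panels and Col15a1 in both panels where it could be judged.

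In glomerular-like barcodes (31 in saline, 24 in cisplatin) 5 genes could be judged. Ltbp4 was again lower after cisplatin, and none was higher. It gave 29 UMIs in 12 saline barcodes and 3 UMIs in 2 cisplatin barcodes, or 842 CPM (564 to 1209) and 37.2 CPM (7.67 to 109), a ratio of 0.0442 (0.00861 to 0.142). With 3 endothelial and 3 subtype markers asked for the ratio was 0.102 (0.0181 to 0.397), and after thinning to 500 UMIs it was 0 (0 to 0.313), each on fewer than 20 UMIs and so with no call. Of 928 genes, 8.08% were higher and 10.3% lower, so 1 lower gene of 5 is no result about the list. Col4a1 gave 18 and 51 UMIs (522 and 632 CPM, ratio 1.21, 0.695 to 2.20), and Col4a2 gave 8 and 25 (232 and 310 CPM, ratio 1.33, 0.583 to 3.42). Sparc stood at 871 and 1264 CPM (ratio 1.45, 0.958 to 2.26) and was called higher at 1.73 (1.06 to 2.93) without the barcode that held most of it in each library. Fbln5 stood at 232 and 223 CPM (ratio 0.960, 0.397 to 2.55), but at a ratio of 0.199 (0.120 to 0.339) with mixed barcodes kept. Arterial markers summed to 1132 CPM in saline and 1016 CPM in cisplatin in this gate, but Gja5 among them gave 8 and 1 UMIs (ratio 0.0534, 0.00120 to 0.398), with Bmx and Cxcl12 at 0 in cisplatin, and Mgp stood at 2293 and 149 CPM. The gate's own glomerular markers summed to 5719 and 9726 CPM, with Plat at 1539 and 4485 CPM (ratio 2.92, 2.18 to 3.97). Sost (5.55) and Nostrin (2.05) had intervals above 1. Those of Gata5 (1.42), Ehd3 (1.21), Pi16 (1.16), Tbx3 (0.996) and Smad6 (0.660) included 1. Capillary markers summed to 668 and 1871 CPM, with Fabp4 at 377 and 1214 CPM. The part of these genes in the Ltbp4 ratio was not tested. Lama4 gave 2 UMIs in each library, Eln 8 and 5, Fbln2 5 and 2, and Fn1 3 and 0.

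The arterial-like gate held only 12 cisplatin barcodes, under the 20 set as the least for a ratio, so its levels stand side by side with no call. Eln was at 370 CPM in saline (313 to 433) and 1150 CPM in cisplatin (908 to 1438). Fbln2 was at 452 and 866 CPM, Fbln5 at 800 and 1165, Ltbp4 at 832 and 1329, and Fn1 at 199 and 284 CPM. Col4a1 was at 289 and 224 CPM, Col4a2 at 114 and 89.6, and Sparc at 1340 and 1001 CPM. Lama4 gave 1 UMI in each library, and Col15a1 gave 1 UMI in saline and 0 in cisplatin, where its interval reached 55.1 CPM.

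A single barcode carried much of the cisplatin arterial values. It held 22456 UMIs, 33.5% of the gate, and 46 of 77 Eln UMIs, 43 of 89 Ltbp4 UMIs and 34 of 67 Sparc UMIs. Without it the 11 other barcodes gave 697 CPM of Eln (473 to 989), 719 of Fbln2 (492 to 1015), 1169 of Fbln5 (873 to 1533) and 1034 of Ltbp4 (757 to 1379). For Fbln5 the deepest barcode held 26 of 78 UMIs and another barcode 39. Ltbp4 was seen in 3 of these 11 barcodes and Eln in 6. The makeup of the gate differed as well, since 10 of 12 cisplatin barcodes lacked Calca and Thbs2, against 61 of 111 in saline, and saline barcodes of that kind stood at 817 CPM of Eln and 1145 CPM of Ltbp4. With mixed barcodes kept, 128 saline and 18 cisplatin arterial-like barcodes gave 349 and 779 CPM of Eln and 824 and 881 CPM of Ltbp4. In each of these views the Ltbp4 level of the cisplatin arterial-like barcodes was above the 45.0 CPM of the capillary-like ones of the same library.

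**Figure D5:**
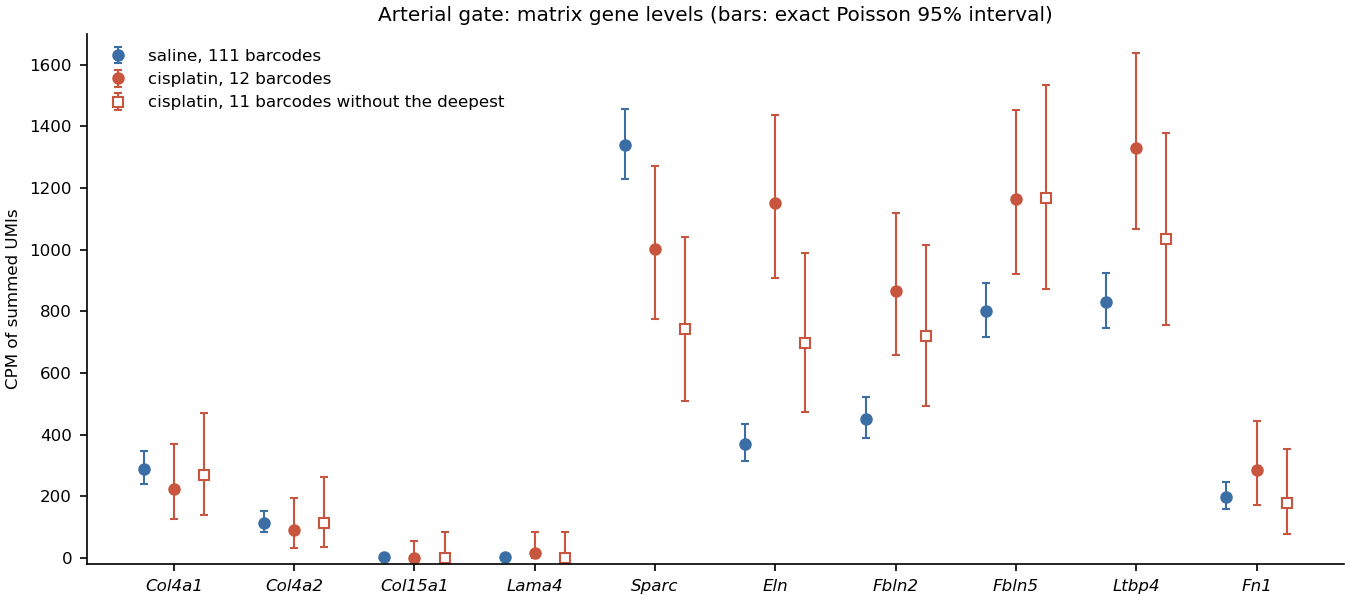
Level of each gene (CPM of summed UMIs, linear axis) in arterial-like barcodes of saline (blue circles, 111 barcodes), cisplatin (red circles, 12 barcodes) and cisplatin without its deepest barcode (open red squares, 11 barcodes), with exact Poisson 95% intervals. Eln moves from 1150 to 697 CPM when that barcode is left out, and Fbln5 from 1165 to 1169 CPM, with 39 of its 78 UMIs in another barcode.

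Over all endothelial barcodes, 435 in saline and 300 in cisplatin, all 10 genes could be judged. Col15a1, Sparc, Fbln2, Fbln5, Ltbp4 and Fn1 were lower after cisplatin, none was higher, and Col4a1, Col4a2, Lama4 and Eln were neither. Of 7770 genes, 15.3% were higher and 14.5% lower, and the median log2 ratio was -0.86 for the members and -0.01 for all genes. Ltbp4 gave 517 UMIs in 182 saline barcodes and 103 UMIs in 14 cisplatin barcodes (675 and 206 CPM, ratio 0.305, 0.244 to 0.378). Fbln2 stood at 324 and 128 CPM (0.395, 0.295 to 0.522), Fbln5 at 523 and 218 CPM (0.416, 0.334 to 0.516) and Fn1 at 130 and 54.0 CPM (0.413, 0.260 to 0.638). Sparc stood at 1311 and 795 CPM (0.607, 0.539 to 0.682) and Col15a1 at 69.2 and 34.0 CPM (0.491, 0.267 to 0.862). Eln was at 256 and 178 CPM (0.695, 0.535 to 0.898), with 46 of its 89 cisplatin UMIs in 1 arterial-like barcode. Without the barcode that held most of it in each library its ratio was 0.368 (0.257 to 0.516), which would be called lower.

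The mix of vessels differed between these pools, and so did free RNA. Arterial-like barcodes were 111 of 435 in saline and 12 of 300 in cisplatin, and barcodes with no subtype were 97 and 201. Free RNA made up an estimated 4.98% and 32.0% of all endothelial UMIs. The 12 proximal tubule markers summed to 1542 and 6861 CPM, with all 12 seen in both. In the barcodes with no subtype, free RNA made up an estimated 13.9% and 68.7% of UMIs. There the tubule markers summed to 4299 and 14725 CPM and the endothelial markers to 9356 and 3755 CPM. Sparc stood at 877 and 172 CPM in them. Where only barcodes with fewer tubule than endothelial marker UMIs were kept (404 and 94), the ratio was 0.904 (0.799 to 1.02) for Sparc and 0.486 (0.389 to 0.602) for Ltbp4. From the pooled ratios alone, the mix of vessels, free RNA and a difference within each vessel type cannot be told apart. Levels within each gate are given above.

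Outside the endothelial gates the type IV collagens and Sparc were seen in mural-like barcodes. In the 52 mural-like cisplatin barcodes Col4a1 stood at 325 CPM (20 UMIs in 12 barcodes, 6.61 UMIs estimated from free RNA), Col4a2 at 228 CPM (14 UMIs in 10 barcodes, 7.31 from free RNA) and Sparc at 374 CPM (23 UMIs, 6.15 from free RNA). In the 755 proximal tubule-like cisplatin barcodes Col4a1 gave 65 UMIs where free RNA would give an estimated 94.1, Col4a2 74 against 104, and Ltbp4 8 against 15.2. The estimate uses the same markers that picked these barcodes, so a tubule cell's own transcripts count as free RNA (94.2% of UMIs here). It therefore cannot tell whether these barcodes held member RNA of their own. In the 31 podocyte-like cisplatin barcodes Sparc gave 16 UMIs in 5 barcodes (382 CPM), 8 of them in 1 barcode. Free RNA made up an estimated 43.3% of that gate's UMIs. In the 85 leukocyte-like cisplatin barcodes no member gave more than 7 UMIs. In saline, all 15 leukocyte-like Fn1 UMIs came from 1 of 3 barcodes, and 11 of 12 mural-like Fbln5 UMIs from 1 of 7. Those 7 mural-like barcodes held Col4a1 at 855 CPM (10 UMIs, 5 in 1 barcode) and Col4a2 at 598 CPM (7 UMIs, 4 in 1 barcode). The 3 fibroblast-like barcodes of cisplatin and 2 of saline were too few to describe.

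Barcodes with mixed markers were kept out of the gates but held many member UMIs. In cisplatin they held 1109671 UMIs, against 500356 in all endothelial barcodes, and in saline 238540 against 766018. Col4a1 gave 436 UMIs in mixed and 201 in all endothelial barcodes of cisplatin, but 51 and 349 in saline. For Sparc these were 1000 and 398 in cisplatin and 341 and 1004 in saline. The ratios above leave these barcodes out, except where mixed barcodes were kept. In saline, 27 of the 62 carried podocyte markers, mostly Synpo (23 barcodes) and Cdkn1c (17), while Nphs1 was seen in 1. These 27 held Ltbp4 at 812 CPM and Eln at 271 CPM (832 and 370 CPM in the arterial-like barcodes). In cisplatin, 56 of 209 carried podocyte markers and held Ltbp4 at 39.2 CPM and Eln at 36.4 CPM. The vessel markers of these groups differed, with arterial markers at 2713 CPM in saline and 748 CPM in cisplatin and glomerular markers at 948 and 4417 CPM.

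Other matrix genes were read from 7 lists holding 105 names. Cyr61 and Ctgf among them were not found, but they are older names of Ccn1 and Ccn2, which were listed as well and found. In capillary-like barcodes, 1 of 8 judged basement membrane genes was lower after cisplatin and none higher, near the 13.3% and 8.95% of all genes. That gene was Hspg2, which encodes perlecan, the heparan sulfate proteoglycan of basement membranes (426 and 199 CPM, ratio 0.468, 0.299 to 0.715). Of 3 elastic fibre and microfibril genes, Ltbp1, a relative of Ltbp4, was lower (200 and 25.7 CPM, 39 and 4 UMIs, ratio 0.129, 0.0333 to 0.356) and Mgp higher (56.4 and 174 CPM, ratio 3.07, 1.48 to 6.87). The 6 collagen folding and secretion genes were all neither, with a median log2 ratio of 0.24 against -0.11 for all genes. Of 6 matrix receptors, the syndecan gene Sdc4 was higher (8 and 20 UMIs, ratio 3.13, 1.32 to 8.22). The integrin genes Itgb1 (1067 and 495 CPM, ratio 0.464, 0.352 to 0.605) and Itga6 (ratio 0.313, 0.116 to 0.734) were lower.

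Protease inhibitors and matricellular genes moved both ways in the same barcodes. Timp3, a matrix-bound inhibitor of metalloproteinases, was lower (3176 and 1953 CPM, ratio 0.615, 0.534 to 0.707), and Timp2 was higher on few UMIs (7 and 16, ratio 2.86, 1.11 to 8.23). Sparcl1, a relative of Sparc, was lower (647 and 315 CPM, ratio 0.487, 0.343 to 0.683), as was Cd93 (0.569, 0.416 to 0.769), and the proteoglycan gene Bgn was higher (4 and 30 UMIs, ratio 9.39, 3.31 to 36.7). No fibrillar collagen could be judged. For the listed genes in this gate no value is given without the deepest cisplatin barcode, which held 20.5% of its UMIs.

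In glomerular-like barcodes few listed genes could be judged. Hspg2 was lower again (0.394, 0.164 to 0.937), as were Itgb1 (0.613, 0.400 to 0.947) and Mgp (0.0648, 0.0321 to 0.120). Timp3 was higher there (1626 and 3345 CPM, ratio 2.06, 1.54 to 2.80), and so was Bcam, a laminin receptor gene (5 and 31 UMIs, ratio 2.65, 1.02 to 8.72).

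Over all endothelial barcodes, 5 of 15 basement membrane genes were higher after cisplatin and 3 lower, against 15.3% and 14.5% of all genes judged. The higher ones farthest from 1 were Col4a3 (13 and 50 UMIs, ratio 5.89, 3.15 to 11.8) and Col4a4 (23 and 70 UMIs, ratio 4.66, 2.87 to 7.82), the type IV collagen chains that podocytes supply to the glomerular basement membrane. In capillary-like barcodes alone Col4a4 was neither (9 and 12 UMIs, ratio 1.67, 0.646 to 4.49). Over all endothelial barcodes the 10 podocyte markers summed to 138 CPM in saline and 172 CPM in cisplatin. The 10 distal nephron markers summed there to 100.5 and 492 CPM, and free RNA made up an estimated 4.98% and 32.0% of UMIs. Their part in the Col4a3 and Col4a4 ratios of this pool was not tested. Ltbp1 was lower (0.271, 0.152 to 0.457), as were Timp3 (0.363, 0.340 to 0.389), the metalloproteinase gene Mmp15 (0.113, 0.0298 to 0.308) and Sparcl1 (0.323, 0.242 to 0.425). Emilin1, an elastin interface gene, was higher (19 and 38 UMIs, ratio 3.06, 1.72 to 5.62).

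Between arterial-like and capillary-like barcodes of saline, the judged genes of the elastic fibre and microfibril list went both ways. Mgp stood at 1996 and 56.4 CPM (ratio 35.4, 19.7 to 71.1). Fbn1, the main microfibril gene, was also higher, with 29 UMIs in arterial-like and 0 in capillary-like barcodes. Of the other 2 judged genes in that list, Ltbp1 (200 CPM in capillary-like and 97.3 CPM in arterial-like barcodes, ratio 0.486, 0.305 to 0.776) and Tgfb1 (ratio 0.395, 0.223 to 0.695) were both lower. In the basement membrane list 2 of 10 were higher, namely Npnt (171 and 5 UMIs, ratio 16.2, 6.81 to 50.6) and Col18a1 (29 and 1 UMIs, ratio 13.7, 2.28 to 561), and 2 were lower, namely Hspg2 (ratio 0.337, 0.237 to 0.476) and Nid1 (ratio 0.296, 0.145 to 0.588). Of all genes judged there, 10.6% were higher and 9.8% lower. Of the collagens, Col8a1, a short-chain collagen of vessel walls, gave 22 UMIs in arterial-like and 0 in capillary-like barcodes. Timp3 was higher in arterial-like barcodes (7841 and 3176 CPM, ratio 2.47, 2.27 to 2.70).

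As a description of likeness, log2 levels were correlated over 17 points, the gates of either library with at least 20 barcodes. The 12 cisplatin arterial-like barcodes were thus left out, and the only arterial-like point was that of saline. The points share libraries and free RNA, so the coefficients carry no test. Of 4330 genes ranked, those most like Eln were Pam (r = 0.91), Tgfb2 (0.88), Stmn2 (0.87), Pik3r3 (0.86) and Igf2 (0.86). Those most like Col4a1 were Dusp3 (0.91), Ptprg (0.90), Smad1 (0.90), Plpp3 (0.90) and Mxd4 (0.90). Among the members, Col4a1 went most closely with Col4a2 (0.92) and Sparc (0.90), and Eln with Fbln5 (0.88) and Fbln2 (0.84). The coefficient between Eln and Col4a1 was 0.41.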

How the data were processed

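The authors deposited 1 unfiltered matrix per library, holding raw UMI counts by gene and barcode with no normalization. Per the submitters' processing notes they were made with Cell Ranger 6.0.1 on mm10. A version 4 mark stands in them, per the file headers, a difference not resolved here. The sources used here do not give the strand setting of the counting, and Col4a1, Col4a2, Col15a1, Eln and Fn1 each overlap a gene on the other strand.

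The member genes, marker lists and wider lists were chosen with earlier results of these data known. Barcodes with at least 500 UMIs and at most 20% mitochondrial UMIs were gated by the number of distinct markers, and no doublet caller was run. An endothelial barcode needed 2 endothelial markers and under 2 of any other class, proximal tubule aside. A subtype needed the most markers of 1 list, at least 2. UMIs were summed per gate and library and given as CPM with exact Poisson intervals, shares with Clopper-Pearson intervals, and ratios with exact conditional binomial intervals (scipy 1.17.1, numpy 2.4.6). UMIs of 1 library are not biological replicates, so these intervals hold counting error alone. For log2 ratios 0.5 UMIs were added per side, and likeness used log2(CPM + 10).

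Free RNA was profiled from barcodes with 1 to 100 UMIs (3703779 and 2140605 UMIs), and its share in a gate was estimated from proximal tubule markers. The wider-list genes named were, per list and comparison, up to 2 called genes with the interval bound farthest from 1, and for likeness the 5 highest coefficients. Genes named beyond these were chosen after their values were seen. Promoter windows are from RefSeq (GRCm38.p6) and gene positions from GRCm38. Results were recomputed under 15 other settings, and 2 more were added after seeing the data. The ratio rule was tested on simulated counts.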

Additional observations from a re-analysis of the deposited data

How the results depend on the processing

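Of the recomputed counts of higher and lower members, 135 stayed within 1.5 times the reported count and 21 did not. Of the member ratios, 480 stayed inside the reported interval, 74 left it and 1 reversed. The arterial to capillary counts in saline (5 higher, 3 lower) moved under none of the alternatives. For the capillary-like gate after cisplatin (0 higher, 2 lower), 4 were lower with subtypes set by summed marker UMIs, 1 was higher with mixed barcodes kept, and 1 was lower where no arterial marker, Calca or Thbs2 UMI was allowed. Over all endothelial barcodes (0 higher), 2 were higher in barcodes with at least 1000 UMIs and 1 in barcodes with fewer tubule than endothelial marker UMIs. For the glomerular-like gate after cisplatin (0 higher, 1 lower), 0 were lower with 3 endothelial and 3 subtype markers and 0 after thinning to 500 UMIs, though the Ltbp4 ratio stayed between 0 and 0.102 over 13 alternatives. There 2 were lower with a gene minimum of 10 UMIs and 2 with none, 4 with mixed barcodes kept, and 2 lower and 1 higher with summed marker UMIs. In that gate 1 was higher with a median-ratio size factor and 1 with the top barcode of each gene left out.

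For glomerular-like against capillary-like barcodes in saline (1 higher, 3 lower), 0 were higher with 3 and 3 markers and 0 without the top barcode. There 2 were higher with summed marker UMIs, 3 with mixed barcodes kept, 3 with a minimum of 10 UMIs, 4 with no minimum, and 1 was lower after thinning. The reversed ratio was that of Ltbp4 there, 0.920 with 3 and 3 markers. The cause of these changes was not tested. Ltbp4 in capillary-like barcodes ranged from 0 to 0.198 and Col15a1 from 0 to 0.186 over 17 alternatives. In 7 cases the glomerular gate fell under 20 barcodes and no value was computed, and arterial-like counts after cisplatin were not computed, with 12 barcodes. No paired analysis was possible because each group had 1 library. Depth limits Lama4, Fn1, Eln and the fibulins in capillary and glomerular gates, where few UMIs were seen.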
